A study of Rattus norvegicus with 30 samples.

Results

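The expression of 60 lysosomal genes was followed in rat microglia after stroke. They were 39 named hydrolases, membrane proteins and regulators, and the 21 genes whose symbols begin with Atp6v, which encode subunits of the proton pump of the lysosome. The genes were found by symbol in the annotation of the array platform, and each was read from 1 probe set, the one with the highest mean over the 30 arrays. A probe set that named a single gene was found for 59 of the 60. Sgsh, which encodes a heparan sulfatase, had none. A filter on dim probe sets was passed by 56 of the 59, against 11675 of the 14506 genes named on the array. The 3 that did not pass were Atp6v0a4, Atp6v0d2 and Atp6v1b1. The 56 tested members comprised 10 proteases, 11 glycosidases and sulfatases, 7 lipid-handling proteins, 8 membrane proteins, 2 regulators and 18 V-ATPase subunits.

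The lysosome is the acidic compartment in which a cell breaks down what it has engulfed together with its own worn-out parts. Soluble hydrolases do the digestion, heavily glycosylated membrane proteins line the compartment, and the V-ATPase acidifies it with a membrane sector, V0, that carries protons and a cytosolic sector, V1, that burns ATP. Microglia, the resident macrophages of the brain, use this system to clear myelin, synapses and dying cells. In mammals the transcription factor Tfeb is known to switch on many lysosomal genes through a short DNA element in their promoters.

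The rats were male, and a filament closed the middle cerebral artery for 75 min. Microglia were profiled in 10 groups of 3 arrays. At 3 months of age these were the ipsilateral (injured) and contralateral (opposite) hemisphere on day 3, the same 2 hemispheres on day 14, and sham controls, and the same 5 groups were profiled at 12 months. The strain is given as Wistar Kyoto in the sample characteristics and as spontaneously hypertensive in the protocols. How microglia were isolated, which hemisphere the sham samples came from and whether sham samples were separate animals are not given in the sources used here. The 24 stroke arrays came from 12 animals, each giving both hemispheres, and this pairing was read from the sample codes. Comparisons between hemispheres, and all comparisons at 12 months, lay within 1 code number. At 3 months the sham, day 3 and day 14 samples each had a code number of their own, so code number and group cannot be told apart there.

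Array medians lay between 5.06 and 5.24 on the log2 scale, and arrays of 1 group correlated at 0.9865 to 0.9953. The standard deviation over an array was 1.79 to 1.93 on the 3-month stroke arrays and 1.94 to 2.05 on the others. The mean log2 level of 10 microglial marker genes was 9.34 to 9.76 on ipsilateral arrays, against 9.94 to 10.34 on contralateral and 10.15 to 10.32 on sham arrays. Markers of neurons averaged 4.40 to 4.98 over 11 genes, beside 30th percentiles of 4.07 to 4.35 on the arrays. One contralateral array of 3 months and day 14 stood apart, with the highest mean levels of the neutrophil (6.49), astrocyte (5.41) and oligodendrocyte (5.79) lists in its group.

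More members were higher than lower in the ipsilateral hemisphere in each of the 4 comparisons with the contralateral hemisphere, and the excess was greatest on day 14. A gene was called where limma's adjusted p, with Benjamini-Hochberg adjustment over all 11675 genes, lay under 0.05. At 3 months 23 of the 56 members were called on day 3, 17 higher and 6 lower, where 20.4% of all genes were called. On day 14 at that age 35 were called, all higher, against 20.3% of all genes. At 12 months the members called on day 3 were 23 higher and 11 lower (28.7% of all genes), and on day 14 they were 25 higher and 3 lower (16.8% of all genes). As shares of the members, 30.4%, 62.5%, 41.1% and 44.6% were higher in these 4 comparisons, beside 11.5%, 13.2%, 18.7% and 10.9% of all genes. Of all genes 8.95%, 7.09%, 10% and 5.94% were lower, beside 10.7%, 0%, 19.6% and 5.36% of the members. These shares of all genes also stand beside the counts by class given below.

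The median member changed by 0.10 (3 months, day 3), 0.35 (3 months, day 14), 0.14 (12 months, day 3) and 0.20 (12 months, day 14) on the log2 scale, and the median of all genes was -0.01 in each. In bulk samples such as these, a change in the cells that make up a sample cannot be told apart from a change in RNA per cell. Quantile normalization of the arrays to each other moved the day 3 split to 13 higher and 10 lower at 3 months and to 14 and 14 at 12 months, so the balance of higher and lower members on day 3 depended on scaling, and centring of the arrays gave 25 higher and 6 lower at 12 months. In the fit with the animal as a block, 22, 32, 30 and 25 members were called in the 4 comparisons.

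**Figure D1:**
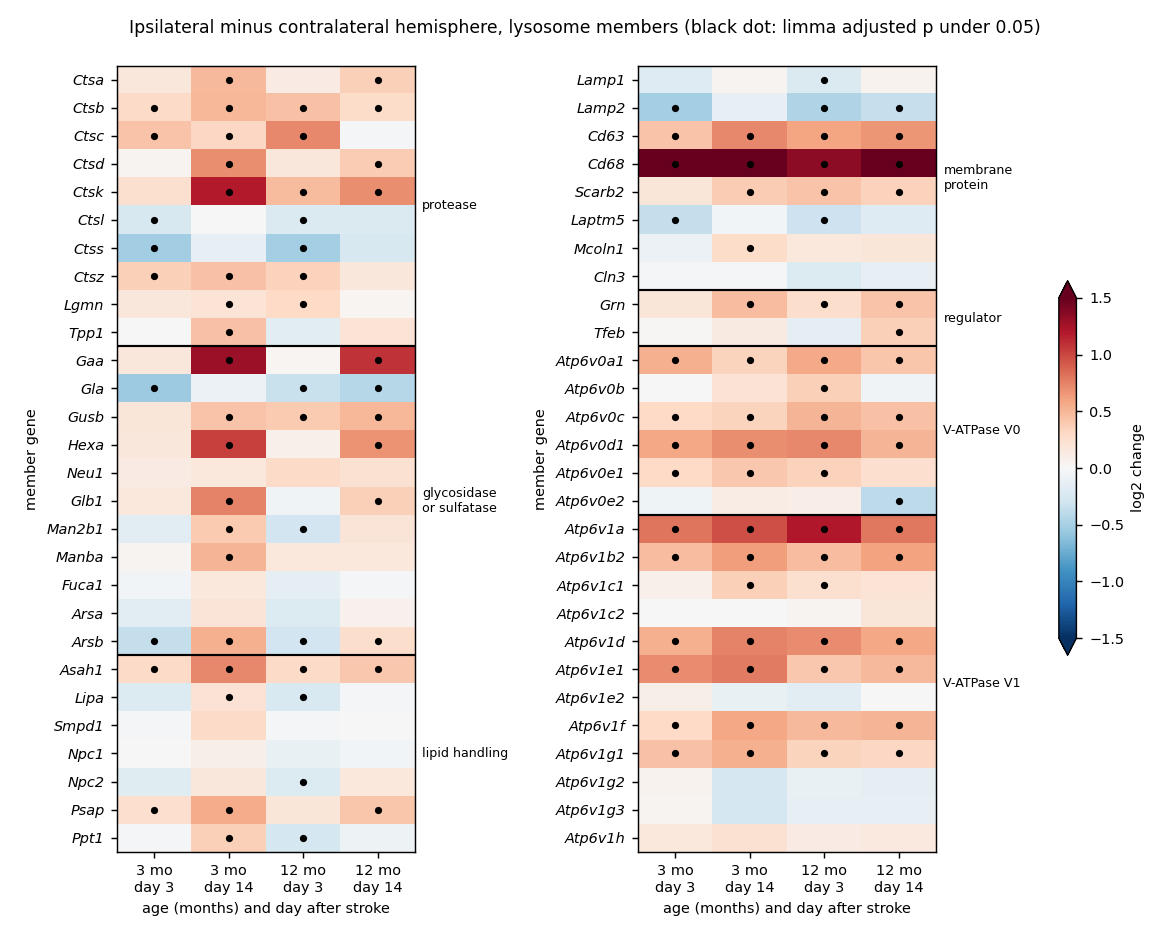
Heat map of the log2 change, ipsilateral minus contralateral, of 56 lysosome members (rows, grouped by role) at each age in months and day (columns), with a black dot where limma's adjusted p was under 0.05; colours beyond 1.5 are capped. V-ATPase rows carry dots across all 4 columns for 9 subunits, the change of Atp6v1c2 at 12 months and day 14 is measured against dim arrays, and the glycosidases and sulfatases are red with dots mainly in the day 14 columns.

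Among the V-ATPase subunits, 9 were higher in the ipsilateral hemisphere at both ages and on both days. Of the 18 tested, 10 rose on day 3 and 11 on day 14 at 3 months, and 12 on day 3 and 9 on day 14 at 12 months. The only one that fell was Atp6v0e2, on day 14 at 12 months. The median subunit changed by 0.30, 0.35, 0.36 and 0.28 (log2) in the order of these counts. Under quantile normalization 9, 10, 8 and 9 rose, with medians of 0.19, 0.26, 0.25 and 0.23.

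Atp6v1a, the catalytic A subunit of V1, changed most among the subunits. Its log2 level at 3 months on day 3 was 7.10, 6.81 and 6.10 on the ipsilateral arrays, against 5.60, 5.99 and 6.02 on the contralateral arrays. At 3 months on day 14 it was 6.45, 6.87 and 6.66 on ipsilateral and 5.83, 5.40 and 5.84 on contralateral arrays. The hemispheres did not overlap on either day, although ipsilateral array 3 of day 3 lay close to the contralateral ones. At 12 months Atp6v1a stood at 7.78, 7.41 and 7.72 (ipsilateral) against 6.40, 6.41 and 6.50 (contralateral) on day 3. Its day 14 values at 12 months were 7.33, 6.31 and 7.05 on ipsilateral and 5.81, 6.60 and 5.91 on contralateral arrays, and here the hemispheres overlapped. The log2 changes were 0.80 ± 0.23 (SE, n = 3 arrays a group, limma adjusted p = 0.0117), 0.97 ± 0.23 (adjusted p = 0.00255), 1.20 ± 0.23 (adjusted p = 0.000152) and 0.79 ± 0.23 (adjusted p = 0.0143). The day 14 call at 12 months was lost with the animal as a block (adjusted p = 0.0569), and without ipsilateral array 1 or 3 or contralateral array 1 or 3 (changes of 0.58 to 0.72). The day 3 call at 3 months was lost without ipsilateral array 1 (0.58) or 2 (0.73) or contralateral array 1 (0.66). A second probe set of Atp6v1a gave 0.81, 0.65, 1.07 and 0.57.

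Atp6v0d1, which couples the V1 stalk to the proton-carrying ring, showed less scatter. Its ipsilateral levels on day 3 at 3 months were 9.18, 8.94 and 8.99, against contralateral levels of 8.46, 8.43 and 8.50. On day 14 they were 9.35, 9.37 and 9.19, against 8.62, 8.48 and 8.72 on contralateral arrays. At 12 months the ipsilateral arrays read 9.78, 9.88 and 9.93 on day 3, against 9.25, 8.99 and 9.20 on contralateral arrays, and 9.73, 9.51 and 9.62 on day 14, against 9.10, 9.14 and 9.07. No ipsilateral array overlapped the contralateral arrays of its group, and the log2 changes of Atp6v0d1 were 0.58, 0.70, 0.72 and 0.51 (SE 0.09 each, adjusted p at most 4.83e-05).

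Atp6v1e1, a subunit of the peripheral stalk, rose by 0.71 ± 0.12 and 0.78 ± 0.12 on days 3 and 14 at 3 months and by 0.40 ± 0.12 and 0.49 ± 0.12 at 12 months. Its levels on day 3 at 3 months were 8.07, 7.73 and 7.49 on ipsilateral and 7.15, 6.96 and 7.05 on contralateral arrays. The day 3 call of Atp6v1e1 at 12 months (adjusted p = 0.012) was lost without ipsilateral array 3 (0.35) or contralateral array 2 (0.35) and under quantile normalization (0.29).

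Most V-ATPase subunits exist as a broadly expressed isoform and others restricted to tissues such as kidney, testis or brain, and the genes were divided by this textbook range after their values had been seen. Of 13 broadly expressed genes, 9 rose in all 4 comparisons: Atp6v0a1, Atp6v0c, Atp6v0d1, Atp6v1a, Atp6v1b2, Atp6v1d, Atp6v1e1, Atp6v1f and Atp6v1g1. The other broadly expressed genes were Atp6v0e1 (higher in 3 comparisons), Atp6v1c1 (higher on day 14 at 3 months and on day 3 at 12 months), Atp6v0b (higher on day 3 at 12 months) and Atp6v1h, the regulatory H subunit, which passed the test in none (changes of 0.16, 0.23, 0.13 and 0.15). Of 8 restricted isoforms, 5 were tested and none was called higher. Atp6v0a4, Atp6v0d2 and Atp6v1b1 did not pass the filter on dim probe sets. Atp6v1c2, Atp6v1e2 and Atp6v1g3 averaged 4.09, 4.62 and 5.00 over the 30 arrays, beside 30th percentiles of 4.07 to 4.35. A rise in such dim genes could be missed. Tcirg1, an isoform of the V0 a subunit without an Atp6v symbol, was not part of this division and is given below. Atp6v1c2, a restricted isoform of the C subunit, lay close to background, and on day 14 at 12 months its contralateral arrays were all dim. The fitted change there was 0.18 and did not pass the test. It was 0.02 with the contralateral values raised to the 30th percentile of their arrays. The changes of the other tested isoforms lay between -0.39 and 0.12, both in Atp6v0e2.

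Atp6v0e2, a restricted isoform of the small e subunit, read 6.34, 6.23 and 6.62 on ipsilateral arrays of 12 months and day 14, against 6.83, 6.92 and 6.63 on contralateral arrays. It fell by 0.39 ± 0.11 (adjusted p = 0.00906), and the highest ipsilateral array met the lowest contralateral one. The call was lost without ipsilateral array 2 (-0.31) or contralateral array 2 (-0.33). Atp6v0d2, a d-subunit isoform known from osteoclasts and kidney, lay between 3.41 and 4.05 on all 30 arrays and was not tested.

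Proteases gave a mixed result on day 3 and rises alone on day 14. At 3 months 3 of the 10 rose and 2 fell on day 3, and 8 rose on day 14. At 12 months 5 rose and 2 fell on day 3, and 4 rose on day 14. The 2 that fell on day 3 were at both ages Ctsl and Ctss, cysteine cathepsins. Ctsb, also a cysteine cathepsin, rose in all 4 comparisons, by 0.28, 0.50, 0.45 and 0.28.

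Ctss, known for trimming the invariant chain of MHC class II, had log2 levels of 11.42, 11.59 and 11.73 on the ipsilateral arrays of 3 months and day 3, against 12.10, 12.09 and 12.11 on the contralateral arrays. At 12 months and day 3 the ipsilateral arrays read 11.49, 11.79 and 11.46 and the contralateral arrays 12.19, 12.07 and 12.04. On both occasions every ipsilateral array lay below every contralateral one. The falls were 0.52 ± 0.09 at either age (limma adjusted p = 4.34e-05 at 3 months and 3e-05 at 12 months). On day 14 the changes of Ctss were -0.13 (adjusted p = 0.329) at 3 months and -0.24 (adjusted p = 0.0516) at 12 months, and both passed the test under quantile normalization (-0.27 and -0.34).

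Ctsk, a collagen-cleaving cathepsin of osteoclasts, showed its greatest rise on day 14 at 3 months. The ipsilateral arrays there read 6.80, 7.33 and 6.61, against 6.22, 5.45 and 5.49 on contralateral arrays. At 3 months on day 3 they read 5.98, 6.35 and 6.35, against 5.95, 5.92 and 6.09, and the hemispheres overlapped. Ctsk rose by 1.19 ± 0.17 on day 14 (adjusted p = 4.31e-06) and changed by 0.24 ± 0.17 on day 3 (adjusted p = 0.375) at 3 months. At 12 months it rose by 0.48 ± 0.17 on day 3 (adjusted p = 0.0322) and 0.69 ± 0.17 on day 14 (adjusted p = 0.00364). Of these, the day 3 call was lost under quantile normalization and without any 1 of the 6 arrays other than ipsilateral array 2 (0.41 to 0.49), and the day 14 call without ipsilateral array 1 (0.52).

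Ctsd, the main aspartic protease of the lysosome, was 11.69, 11.61 and 11.49 on ipsilateral arrays of 3 months and day 14, against 10.90, 10.85 and 10.95 on contralateral arrays. On day 3 its ipsilateral values were 11.36, 11.29 and 11.30, among contralateral values of 11.26, 11.24 and 11.33. The rise on day 14 was 0.70 ± 0.07 (adjusted p = 3.41e-08), and the change on day 3 was 0.04 ± 0.07 (adjusted p = 0.789). At 12 months Ctsd rose by 0.39 ± 0.07 on day 14 (adjusted p = 0.000287), with ipsilateral arrays at 11.88, 11.88 and 11.83 and contralateral arrays at 11.45, 11.51 and 11.47. Its day 3 change at 12 months was 0.16 ± 0.07 (adjusted p = 0.0982), and it passed the test when arrays were centred on their medians (0.21) and with an intensity trend.

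Ctsc, which activates the serine proteases of immune cell granules, ran the other way at 12 months. On day 3 its ipsilateral arrays read 9.96, 9.96 and 9.99, against 9.43, 9.09 and 9.20 on contralateral arrays. On day 14 they read 9.51, 9.02 and 9.26, against 9.22, 9.29 and 9.32, and the hemispheres overlapped. Ctsc rose by 0.73 ± 0.11 on day 3 (adjusted p = 3.58e-06) and changed by -0.01 ± 0.11 on day 14 (adjusted p = 0.963). At 3 months it rose by 0.43 on day 3 and by 0.31 on day 14. The 3-month day 14 call was lost with the animal as a block (adjusted p = 0.0601), under quantile normalization (0.22), and without ipsilateral array 1 or 2 or contralateral array 2 or 3 (0.22 to 0.32).

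The enzymes that remove sugars and sulfates from glycans and glycolipids separated the 2 days most clearly. Of the 11 tested, none rose and 2 fell on day 3 at 3 months, whereas 7 rose on day 14. At 12 months 1 rose and 3 fell on day 3, and 5 rose and 1 fell on day 14. Of all genes 11.5% and 18.7% were higher and 8.95% and 10% lower on day 3, at 3 and 12 months. On day 14 the shares of all genes were 13.2% and 10.9% higher and 7.09% and 5.94% lower. Quantile normalization gave 7 and 5 rises on day 14 as well, and on day 3 it gave 3 falls at 3 months and 1 rise with 4 falls at 12 months.

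Gaa, acid alpha-glucosidase, the enzyme of lysosomal glycogen breakdown, read 9.37, 9.35 and 9.34 on the ipsilateral arrays of 3 months and day 14, against 8.11, 8.13 and 7.92 on contralateral arrays. On day 3 its ipsilateral arrays read 8.53, 8.49 and 8.74, against 8.41, 8.30 and 8.54. The hemispheres stood far apart on day 14 and overlapped on day 3. At 12 months Gaa read 9.77, 9.86 and 9.85 (ipsilateral) against 8.61, 8.80 and 8.79 (contralateral) on day 14, and 8.83, 8.87 and 8.91 against 8.85, 8.84 and 8.83 on day 3. The rise on day 14 was 1.30 ± 0.08 at 3 months (adjusted p = 7.5e-13) and 1.09 ± 0.08 at 12 months (adjusted p = 3.39e-11). On day 3 the changes were 0.17 ± 0.08 (adjusted p = 0.157) and 0.03 ± 0.08 (adjusted p = 0.836).

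Hexa, the alpha chain of the beta-hexosaminidase that degrades GM2 ganglioside, followed the same course. At 3 months on day 14 it read 9.82, 9.63 and 9.64 on ipsilateral and 8.66, 8.63 and 8.71 on contralateral arrays. At 12 months the day 14 values were 10.13, 10.16 and 10.10 (ipsilateral) and 9.35, 9.45 and 9.55 (contralateral). Neither pair of groups overlapped, and Hexa rose by 1.03 ± 0.10 (adjusted p = 9.68e-09) and 0.68 ± 0.10 (adjusted p = 1.04e-05). On day 3 it changed by 0.17 and 0.07, with ipsilateral values of 8.86, 8.83 and 9.30 against 8.90, 8.66 and 8.93 at 3 months, and 9.54, 9.44 and 9.66 against 9.61, 9.34 and 9.48 at 12 months.

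Arsb, arylsulfatase B, which removes sulfate from dermatan and chondroitin sulfate, changed direction between the days. On day 3 at 3 months its ipsilateral arrays read 9.76, 9.91 and 10.08, all below the contralateral values of 10.22, 10.26 and 10.33. On day 14 they read 10.71, 10.58 and 10.67, all above the contralateral values of 9.98, 10.15 and 10.24. Arsb fell by 0.35 ± 0.09 on day 3 (adjusted p = 0.00381) and rose by 0.53 ± 0.09 on day 14 (adjusted p = 4.88e-05). At 12 months the changes were -0.28 ± 0.09 (adjusted p = 0.0151) and 0.26 ± 0.09 (adjusted p = 0.0408). The 12-month day 14 call was lost without any 1 of the 6 arrays (0.24 to 0.28), with the animal as a block (adjusted p = 0.0916) and under quantile normalization (0.17), and the 12-month day 3 call without ipsilateral array 1 or 3 or contralateral array 1 or 3 (-0.27 to -0.22) and with the mean of both probe sets (-0.19). A second probe set of Arsb gave -0.33 and 0.64 at 3 months and -0.11 and 0.31 at 12 months.

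Gla, alpha-galactosidase A, which degrades globotriaosylceramide, was the only member of this class that fell on day 14. On day 3 it read 8.09, 7.93 and 7.86 on ipsilateral arrays at 3 months, against 8.64, 8.36 and 8.52 on contralateral arrays, and it fell by 0.55 ± 0.09 (adjusted p = 3.25e-05). At 12 months it read 8.55, 8.71 and 8.58 against 8.88, 8.99 and 8.96 on day 3, and 8.80, 8.85 and 8.92 against 9.28, 9.33 and 9.24 on day 14. The ipsilateral arrays lay below the contralateral ones in these 3 cases, with 12-month falls of 0.33 ± 0.09 and 0.43 ± 0.09. On day 14 at 3 months Gla read 9.12, 8.75 and 8.87 on ipsilateral and 9.01, 8.96 and 9.03 on contralateral arrays (-0.08, adjusted p = 0.573).

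Among the other enzymes of this class, the beta-galactosidase Glb1 rose on day 14 by 0.75 at 3 months and 0.36 at 12 months, and the beta-glucuronidase Gusb rose by 0.42 and 0.50. Gusb was also called higher on day 3 at 12 months, with changes of 0.35 to 0.42 over the animals. The mannosidases Man2b1 and Manba rose on day 14 at 3 months only among the 4 comparisons, by 0.40 and 0.51, and Man2b1 fell by 0.29 on day 3 at 12 months. The sialidase Neu1, the fucosidase Fuca1 and the sulfatide-degrading Arsa passed the test in none of the 4.

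**Figure D2:**
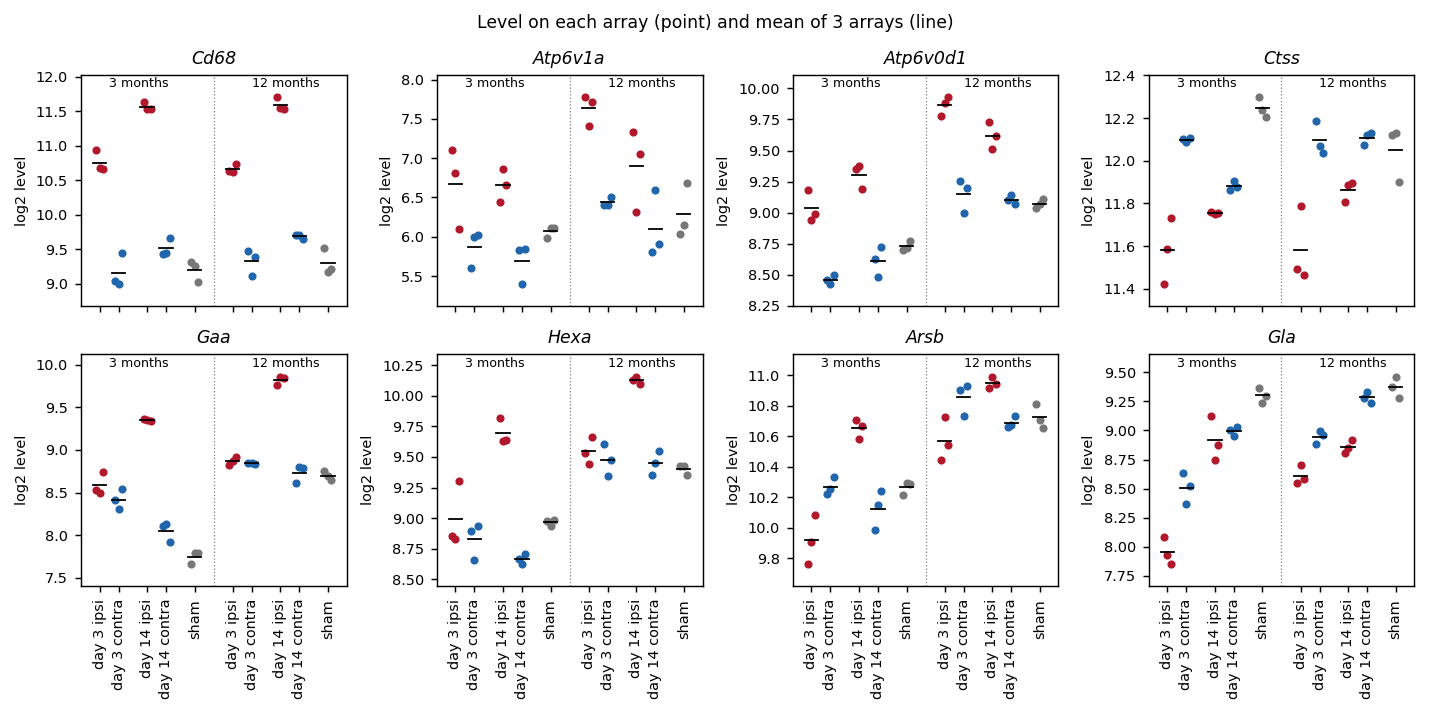
Log2 level of 8 members on each of the 30 arrays (points; ipsilateral red, contralateral blue, sham grey) with the mean of the 3 arrays of a group (line), for 3 months on the left and 12 months on the right of each panel; each panel has its own vertical scale. Cd68 was high on all ipsilateral arrays, Gaa and Hexa on those of day 14, and Ctss low on those of day 3.

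Of the 7 proteins that handle lipids, 2 rose on day 3 and 4 on day 14 at 3 months, and 1 rose and 3 fell on day 3 and 2 rose on day 14 at 12 months. Acid ceramidase, Asah1, rose in all 4 comparisons, by 0.29, 0.73, 0.28 and 0.41. Psap, the precursor of the saposins that present sphingolipids to their hydrolases, rose in 3, by 0.25 and 0.55 at 3 months and by 0.42 on day 14 at 12 months. Lipa, the acid lipase that frees cholesterol from its esters, and Ppt1, a thioesterase, rose on day 14 at 3 months by 0.22 and 0.35 and fell on day 3 at 12 months by 0.23 and 0.26. Npc2, the soluble partner in cholesterol export, fell by 0.20 on day 3 at 12 months. Its membrane partner Npc1 and the acid sphingomyelinase Smpd1 passed the test in none.

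Cd68, a heavily glycosylated protein of macrophage late endosomes, had the largest change of the 56 members in each of the 4 comparisons. At 3 months on day 3 it read 10.93, 10.67 and 10.66 on ipsilateral arrays, against 9.04, 9.0 and 9.45 on contralateral arrays. On day 14 the ipsilateral values were 11.64, 11.53 and 11.54, and the contralateral values 9.43, 9.45 and 9.67. At 12 months Cd68 read 10.63, 10.63 and 10.73 (ipsilateral) against 9.48, 9.12 and 9.39 (contralateral) on day 3, and 11.71, 11.55 and 11.53 against 9.71, 9.71 and 9.65 on day 14. All ipsilateral arrays lay at least as high as 10.63 and no contralateral array above 9.71. The rises were 1.59 and 2.05 at 3 months and 1.34 and 1.91 at 12 months (SE 0.12 each, adjusted p at most 4.42e-10).

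The tetraspanin Cd63 rose in all 4 comparisons as well, by 0.42, 0.72, 0.59 and 0.66. Scarb2, the receptor that carries glucocerebrosidase to lysosomes, rose in 3, and the calcium channel Mcoln1 in 1, on day 14 at 3 months (0.28). Lamp2, one of the major glycoproteins of the lysosomal membrane, fell. Its ipsilateral arrays read 10.77, 10.83 and 10.94 on day 3 at 3 months, against 11.47, 11.32 and 11.29 on contralateral arrays, and 10.97, 11.12 and 11.03 at 12 months, against 11.57, 11.46 and 11.45. The ipsilateral arrays were the lower in both, with falls of 0.51 ± 0.08 (adjusted p = 1.07e-05) and 0.45 ± 0.08 (adjusted p = 3.69e-05). On day 14 Lamp2 fell by 0.34 ± 0.08 at 12 months (11.18, 11.13 and 11.20 against 11.55, 11.52 and 11.48) and changed by -0.13 at 3 months (11.26, 11.14 and 11.10 against 11.29, 11.30 and 11.30), where it passed the test under quantile normalization (-0.33).

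Lamp1, the other major membrane glycoprotein, read 10.29, 10.35 and 10.33 on ipsilateral arrays of 12 months and day 3, against 10.63, 10.43 and 10.55 on contralateral arrays, a fall of 0.21 ± 0.07 (adjusted p = 0.03). This call was lost with the animal as a block (adjusted p = 0.0861), when arrays were centred on their medians (-0.16), and without ipsilateral array 1 or 3 or contralateral array 1 or 3 (-0.22 to -0.17). On day 3 at 3 months Lamp1 changed by -0.19 (adjusted p = 0.0685), with 10.21, 10.36 and 10.27 against 10.56, 10.42 and 10.44, and passed the test under quantile normalization (-0.32) and with an intensity trend. On day 14 it changed by 0.04 and 0.05. Laptm5, a membrane protein of blood-lineage cells, fell on day 3 by 0.36 at 3 months and 0.31 at 12 months. Cln3 passed the test in none.

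Grn, progranulin, which is delivered to lysosomes and supports their enzymes, rose on day 14 by 0.47 ± 0.07 at 3 months and 0.43 ± 0.07 at 12 months, and on day 3 by 0.27 ± 0.07 at 12 months. On day 14 its ipsilateral arrays read 12.03, 12.17 and 11.90 at 3 months and 12.15, 12.17 and 12.17 at 12 months, against contralateral values of 11.63, 11.50 and 11.57 and of 11.62, 11.81 and 11.78. The hemispheres did not overlap at either age. The day 3 call at 12 months was lost under quantile normalization (0.16, adjusted p = 0.109).

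Tfeb changed little in its own transcript. At 12 months on day 14 it read 7.10, 7.15 and 7.09 on ipsilateral arrays, against 6.66, 6.85 and 6.76 on contralateral arrays, a rise of 0.36 ± 0.10 (adjusted p = 0.0135) with no overlap. That call was lost with the animal as a block (adjusted p = 0.0534), under quantile normalization (0.30) and without contralateral array 1 (0.31). In the other 3 comparisons its change was 0.02, 0.13 and -0.14 and did not pass the test.

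Across the 4 comparisons 13 members were higher in all, which is 23.2% of the 56, beside 4.87% of all genes tested. They were the 9 broadly expressed V-ATPase subunits named above with Ctsb, Asah1, Cd63 and Cd68. On day 14 at both ages 24 members were higher (42.9%, beside 7.73% of all genes). Of these 6, namely Ctsa, Ctsd, Gaa, Hexa, Glb1 and Arsb, were called higher on day 3 at neither age. A missing call does not show that a member was unchanged. On day 3 Ctsa was higher in all 3 animals at each age (0.07 to 0.21). The same held for Gaa (0.12 to 0.21) and Glb1 (0.11 to 0.23) at 3 months and for Ctsd (0.16 to 0.17) at 12 months. Arsb at both ages and Glb1 at 12 months were lower in all 3 animals, and the remaining cases were mixed. On day 3 at both ages 6 were lower, namely Ctsl, Ctss, Gla, Arsb, Lamp2 and Laptm5 (10.7%, beside 5.21% of all genes). No member was lower on day 14 at both ages. The 11 members called in none of the 4 were Neu1, Fuca1, Arsa, Smpd1, Npc1, Cln3, Atp6v1c2, Atp6v1e2, Atp6v1g2, Atp6v1g3 and Atp6v1h.

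The change between days was tested as a difference of differences, the ipsilateral-minus-contralateral change on day 14 minus that on day 3. At 3 months 13 members were called, all higher on day 14, where 3.81% of all genes were called (2.57% higher and 1.24% lower). At 12 months 8 were called higher and 1 lower, beside 5.34% of all genes (1.75% higher and 3.59% lower). With the animal as a block 7 and 5 were called. The median difference over members was 0.24 at 3 months and 0.08 at 12 months, and over all genes it was 0.01 and -0.01. None of the 18 V-ATPase subunits was called at either age, with medians of 0.10 and -0.03, although Atp6v0e2 at 12 months (-0.49) passed with the animal as a random block (adjusted p = 0.0414) and with the stricter filter. In the same test 7 of the 11 glycosidases and sulfatases were called at 3 months and 5 at 12 months.

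Gaa had the largest difference, 1.13 ± 0.12 at 3 months (adjusted p = 3.98e-07) and 1.06 ± 0.12 at 12 months (adjusted p = 3.72e-07). Hexa differed by 0.86 ± 0.14 and 0.61 ± 0.14, Arsb by 0.88 ± 0.12 and 0.54 ± 0.12, Glb1 by 0.59 and 0.41, Man2b1 by 0.56 and 0.48 and Npc2 by 0.36 at both ages. These 6 were called at both ages, 46.2% of those at 3 months and 66.7% of those at 12 months. At 3 months Ctsk (0.95), Ctsd (0.66), Manba (0.48), Gla (0.47), Tpp1, a tripeptidyl peptidase (0.45), Lipa (0.42) and Lamp2 (0.39) were called too. At 12 months Cd68 (0.57) and Tfeb (0.50) were called higher and Ctsc lower (-0.74 ± 0.15, adjusted p = 0.00193).

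Several of these calls did not outlast the animal block. It left Ctsd, Ctsk, Gaa, Hexa, Glb1, Man2b1 and Arsb at 3 months, and Ctsc, Gaa, Hexa, Man2b1 and Arsb at 12 months. Leaving out 1 array at a time was run only for the tested members whose values are given array by array, and 5 of their calls of a difference between days were lost in some fits, of which 4 were also lost with the animal block. The 3-month difference of Ctsk (0.75 to 0.90) was lost without contralateral array 3 or ipsilateral array 1 of day 3, or contralateral array 2 or 3 or ipsilateral array 2 of day 14. That of Gla (0.36 to 0.46) was lost without contralateral array 1 or 3 or ipsilateral array 2 or 3 of day 3, or contralateral array 2 or ipsilateral array 1 of day 14. That of Lamp2 (0.33 to 0.40) was lost in 8 of 12 fits, all but those without contralateral array 2 or 3 or ipsilateral array 3 of day 3 or ipsilateral array 3 of day 14. At 12 months the difference of Cd68 (0.50 to 0.60) was lost in all fits but those without contralateral array 2 of day 3 or ipsilateral array 3 of day 14. The 12-month difference of Tfeb (0.44 to 0.51) was lost in all but those without contralateral array 1 or ipsilateral array 3 of day 3 or contralateral array 2 of day 14. In the same fits the differences of Gaa, Hexa, Arsb, Ctsd at 3 months and Ctsc at 12 months kept their calls.

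**Figure D3:**
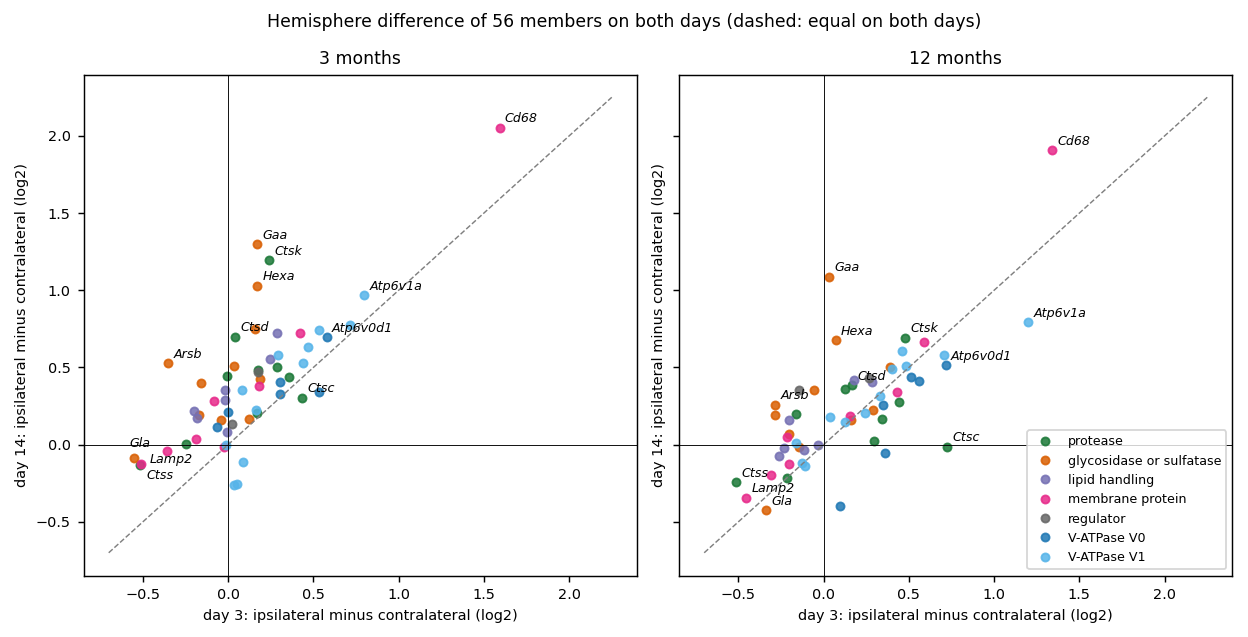
Hemisphere difference (ipsilateral minus contralateral, log2) of the 56 members on day 3 (horizontal) and day 14 (vertical), at 3 months (left) and 12 months (right), coloured by role; the dashed line marks equal differences. Gaa and Hexa lie above the line at both ages and the V-ATPase subunits spread along it, with Cd68 at the upper right.

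Because Tfeb and its relatives are known to bind the CLEAR element, whose centre is the palindrome CACGTG (the E-box core), the members' promoters were searched for it. The windows were the RefSeq sequences of build GRCr8 from 250 bases before to 50 bases from each annotated start, and 47 of the 59 members with a probe set had one. On either strand CACGTG occurred in 9 of the 47 (19.1%), beside 6.42% of 33469 windows in the table. GTCACGTG, which adds the bases that precede the core in the CLEAR element, occurred in 8 (17.0%, beside 1.85%), and TCACGTGA in 6 (12.8%, beside 0.777%). Both longer strings contain the core, and they overlap each other. The 8 with GTCACGTG were Atp6v0d1, Atp6v0e1, Cln3, Ctsd, Gaa, Glb1, Lamp1 and Mcoln1, and Cd63 held the core alone. A match describes the letters in the window and is not a measured binding site. The 33469 windows were not limited to the genes tested. Since the element is known from promoters of lysosomal genes, its share among the members says nothing about the arrays.

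The 250 bases before the start of Gaa, whose hemisphere difference changed most between the days, and of Lamp1, which held the most cores, are shown first. Shorter windows follow around 1 core of each of 4 further members and both cores of Ctsd. All are written 5′ to 3′ on the strand of the gene, and capitals mark CACGTG. Gaa lies at chr10:105028105-105028354 on the plus strand, Lamp1 at chr16:83075064-83075313 on the minus strand. The windows lie at chr1:206968953-206968998 and chr1:206968806-206968851 (Ctsd, minus), chr8:122963598-122963643 (Glb1, plus), chr19:50357275-50357320 (Atp6v0d1, minus), chr1:190597942-190597987 (Cln3, minus) and chr12:6358216-6358261 (Mcoln1, plus).
Gaa: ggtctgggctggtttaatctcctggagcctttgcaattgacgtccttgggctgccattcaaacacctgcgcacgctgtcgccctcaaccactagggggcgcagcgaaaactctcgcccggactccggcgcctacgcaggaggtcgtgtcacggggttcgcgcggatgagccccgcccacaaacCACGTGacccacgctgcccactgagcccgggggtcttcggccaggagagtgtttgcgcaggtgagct
Lamp1: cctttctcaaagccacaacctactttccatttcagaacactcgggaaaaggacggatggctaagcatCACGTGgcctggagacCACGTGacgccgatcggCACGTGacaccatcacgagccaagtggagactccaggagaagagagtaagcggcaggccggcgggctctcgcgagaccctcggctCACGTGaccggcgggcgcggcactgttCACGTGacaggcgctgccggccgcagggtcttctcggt
Ctsd, core at -157: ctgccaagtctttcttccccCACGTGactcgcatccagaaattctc
Ctsd, core at -10: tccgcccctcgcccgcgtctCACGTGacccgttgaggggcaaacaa
Glb1, core at -100: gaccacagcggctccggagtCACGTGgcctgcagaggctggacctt
Atp6v0d1, core at -52: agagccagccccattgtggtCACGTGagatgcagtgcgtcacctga
Cln3, core at -38: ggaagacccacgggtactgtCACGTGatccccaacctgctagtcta
Mcoln1, core at -22: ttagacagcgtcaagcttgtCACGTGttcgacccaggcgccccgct

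Lamp1 held 5 cores, at -183, -167, -150, -65 and -38 from its start, counted to the first base of the core, and Gaa 1, at -67. The 8 members with GTCACGTG did not move as 1 group. Gaa, Glb1, Ctsd and Mcoln1 rose on day 14 at 3 months, and Atp6v0d1 rose on both days. Atp6v0e1 rose on day 3 at both ages and on day 14 at 3 months. Cln3 and Lamp1 did not rise in any of the 4 comparisons. By counts, 2 of the 8 rose on day 3 and 6 on day 14 at 3 months, with 2 and 4 at 12 months. Of the 37 tested members whose window lacked it, 11 and 21 rose at 3 months and 17 and 15 at 12 months. Of the 8, 1 fell, on day 3 at 12 months. Of the 37, 5 fell on day 3 and 0 on day 14 at 3 months, and 8 and 2 at 12 months. The medians on day 14 were 0.55 with and 0.31 without it at 3 months, and 0.31 and 0.18 at 12 months. On day 3 the medians were 0.10 with and 0.09 without it at 3 months, and 0.09 and 0.16 at 12 months. These values are a description with no test.

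**Figure D4:**
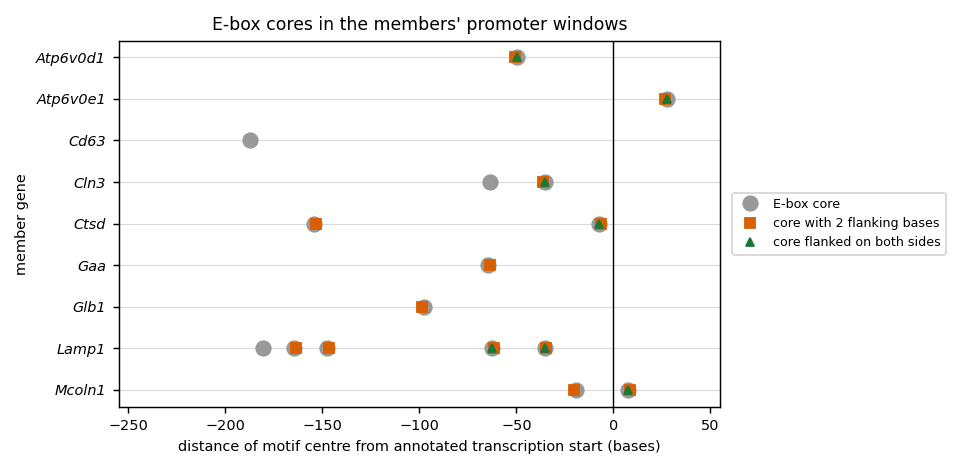
Position of E-box cores in the promoter windows of the 9 members that held one, as the distance in bases of the centre of the motif from the annotated start (vertical line at 0); grey circles mark the core, orange squares the core with its flanking bases on 1 side and green triangles the core flanked on both sides. Lamp1 has 5 cores and Gaa, Glb1, Cd63, Atp6v0d1 and Atp6v0e1 have 1 each.

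Other lysosomal genes were taken from a list of 91 outside the members, of which 69 were tested. The 4 hemisphere comparisons are given in the order 3 months day 3 and day 14, then 12 months day 3 and day 14. Of all genes, 11.5%, 13.2%, 18.7% and 10.9% were higher in them and 8.95%, 7.09%, 10% and 5.94% lower. Of the 69 other lysosomal genes, 23, 28, 29 and 28 rose and 11, 1, 7 and 3 fell. The largest rise was that of Galc, galactosylceramidase, which degrades the galactolipids of myelin: 1.85, 2.36, 2.20 and 2.34 ± 0.15, with mean levels of 8.44, 8.63, 9.24 and 9.13 on ipsilateral and 6.59, 6.27, 7.04 and 6.79 on contralateral arrays. Tfec, a relative of Tfeb found in macrophages, lay at or below the 30th percentile of the array on all contralateral arrays, so its rise was at least 1.41, 0.99, 1.23 and 1.19 (fitted values of 1.78, 1.33, 1.64 and 1.45). Mitf, the other tested relative, rose on day 14 by 0.53 and 0.45. The tartrate-resistant acid phosphatase Acp5 rose on day 14 by 1.36 at 3 months and 0.94 at 12 months. The lysosomal polyamine exporter Atp13a2 rose by 1.41 on day 3 at 12 months. Cst7, an inhibitor of cysteine cathepsins, rose by 0.87 on day 3 at 3 months (adjusted p = 0.0342).

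The Ragulator complex and the Rag GTPases hold and switch the mTORC1 kinase on the lysosome and are known to contact the V-ATPase. Of the 11 tested in that list, 7, 5, 8 and 6 rose and none fell. Of all genes, 11.5%, 13.2%, 18.7% and 10.9% were higher in these comparisons. Lamtor1, which tethers the Ragulator complex to the lysosomal membrane, rose by 0.56, 0.56, 0.82 and 0.45. Lamtor2 rose in all 4 comparisons too, by 0.54, 0.37, 0.46 and 0.55. Of 6 tested V-ATPase partners outside the Atp6v symbols, Atp6ap2 (0.43, 0.44, 0.34 and 0.34) and Tcirg1, the a3 isoform of the V0 a subunit (0.26, 0.31, 0.46 and 0.40), rose in all 4.

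No member passed the test for a different hemisphere difference between the ages. On day 3 the difference between 12 and 3 months was called for 0 members, where 1.58% of all genes were called (1.42% higher and 0.154% lower). At an unadjusted limma p under 0.05 the count on day 3 was 1 of the 56 members, beside 13% of all genes. On day 14 it was also called for 0, and 0.00857% of all genes were called. The unadjusted count on day 14 was 13 of the 56 members, beside 8.95% of all genes. The median over members was 0.02 on day 3 and -0.16 on day 14, and over all genes 0.03 and -0.003. Gaa differed by -0.14 ± 0.12 and -0.21 ± 0.12, Hexa by -0.10 ± 0.14 and -0.35 ± 0.14, and Cd68 by -0.25 ± 0.16 and -0.14 ± 0.16. These comparisons do not show that the ages acted alike.

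Against sham controls of the same age, most of the called members were higher in the ipsilateral hemisphere at 12 months. There 27 members were higher and 6 lower in the ipsilateral hemisphere on day 3 (37.1% of all genes called, 22.7% higher and 14.3% lower), and 27 higher and 4 lower on day 14 (20% of all genes called, 11.9% higher and 8.09% lower). Cd68 exceeded sham by 1.36 and 2.29, Atp6v1a by 1.35 on day 3 and Gaa by 1.13 on day 14, while Gaa changed by 0.17 on day 3 (adjusted p = 0.0996). Sham arrays of 12 months read 9.53, 9.17 and 9.21 for Cd68 and 8.75, 8.69 and 8.65 for Gaa. In the contralateral hemisphere at 12 months the count was 1 member lower on day 3 (Gla, -0.42, adjusted p = 0.00941, 1.28% of all genes called, 1.16% higher and 0.128% lower) and 0 on day 14 (0.00857% of all genes called). At an unadjusted limma p under 0.05 the day 14 count was 5 of the 56 members, beside 6.99% of all genes. The ipsilateral comparisons with sham and with the contralateral hemisphere share the ipsilateral arrays. The call of Gla was lost without sham array 2.

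At 3 months many genes differed from sham in both hemispheres. In the ipsilateral hemisphere 15 members were higher and 19 lower on day 3 (56.8% of all genes called, 20.9% higher and 35.9% lower), and 23 higher and 8 lower on day 14 (34.4% of all genes called, 11% higher and 23.4% lower). In the contralateral hemisphere 7 were higher and 22 lower on day 3 (51.6% of all genes called, 14.4% higher and 37.2% lower), and 5 higher and 26 lower on day 14 (38.7% of all genes called, 10.4% higher and 28.4% lower). Quantile normalization moved these splits to 25 and 12, 27 and 4, 18 and 10, and 9 and 6. The balance of higher and lower calls thus depended on scaling in both hemispheres. The majority turned on day 3 in each hemisphere and on day 14 in the contralateral one. Code number and group cannot be told apart here. Gla stood out by size, with 8.09, 7.93 and 7.86 on ipsilateral arrays of day 3 and 8.64, 8.36 and 8.52 on contralateral arrays, against 9.37, 9.24 and 9.30 on sham arrays (-1.34 ± 0.09 and -0.79 ± 0.09). Gaa was higher than sham (7.67, 7.79 and 7.79) in all 4 stroke groups, by 0.84 on day 3 and 1.60 on day 14 in the ipsilateral and by 0.67 and 0.30 in the contralateral hemisphere.

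Within the ipsilateral hemisphere, 30 members were higher and 2 lower on day 14 than on day 3 at 3 months (29.6% of all genes called, 22% higher and 7.51% lower), where the days have different code numbers. At 12 months 12 were higher and 7 lower (20.6% of all genes called, 6.53% higher and 14.1% lower). At 12 months Gaa (0.95), Cd68 (0.93), Hexa (0.58) and Arsb (0.38) were among the higher, and Atp6v1a (-0.74), Ctsc (-0.70), Atp6v0d1 (-0.24) and Ctsb (-0.24) among the lower. The 12-month split was 18 and 3 under quantile normalization.

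Between sham controls, 18 members were higher and 1 lower at 12 than at 3 months, where 13% of all genes were called (7.47% higher and 5.52% lower). Gaa read 8.75, 8.69 and 8.65 at 12 months, against 7.67, 7.79 and 7.79 at 3 months (0.95 ± 0.08, adjusted p = 7.75e-09). Ctsk was higher by 0.71 ± 0.17, Ctsd by 0.61 ± 0.07, Arsb by 0.46 ± 0.09 and Hexa by 0.43 ± 0.10, and Atp6v1b2, a V1 subunit, was lower (-0.54). The shams of the 2 ages had different code numbers, so age and code number cannot be told apart, and leaving out 1 sham array at a time gave 9 (without array 1 of 3 months) to 14 called members.

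Markers of other cell types moved with the hemisphere as well. In the 4 hemisphere comparisons 11.5%, 13.2%, 18.7% and 10.9% of all genes were higher and 8.95%, 7.09%, 10% and 5.94% lower. Of 13 tested monocyte and macrophage markers, 13 were higher and none lower in the ipsilateral hemisphere on day 3 at 3 months and 12 higher at 12 months, with 6 higher and 1 lower on day 14 at each age. The mean log2 level of that list, over 14 genes with a probe set, was 6.66 to 7.98 on ipsilateral and 5.76 to 5.82 on contralateral arrays on day 3 at 3 months, and 7.21 to 7.41 and 5.84 to 6.06 at 12 months. On day 14 it was 6.26 to 6.38 and 5.81 to 5.89 at 3 months, and 6.21 to 6.66 and 5.93 to 6.01 at 12 months. The hemisphere difference of 6 of the 13 markers was lower on day 14 than on day 3 at each age and of none higher. Of all genes 1.24% at 3 months and 3.59% at 12 months were lower in that test.

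Of 8 tested markers of border macrophages, 7 and 8 were higher on day 3 and 3 higher and 1 lower on day 14 at each age. On ipsilateral and contralateral arrays their mean level over 9 genes was 6.79 to 7.32 and 5.72 to 6.24 on day 3 and 5.54 to 5.67 and 5.41 to 5.44 on day 14 at 3 months. At 12 months it was 6.44 to 6.99 and 5.40 to 5.66 on day 3 and 5.40 to 6.36 and 5.23 to 5.67 on day 14. Of 10 tested microglial markers, 8, 7, 9 and 7 were lower in the 4 comparisons and none was higher. Of 13 neutrophil markers 5 were higher on day 3 at 3 months and 2 at 12 months, with mean levels of 5.95 to 6.65 and 5.67 to 6.0 on ipsilateral and 5.36 to 5.79 and 5.38 to 5.53 on contralateral arrays. On day 14, 2 were higher and 3 lower at 3 months and 1 higher and 1 lower at 12 months, with mean levels of 5.51 to 5.68 and 5.24 to 5.47 on ipsilateral and 5.50 to 6.49 and 5.45 to 5.79 on contralateral arrays. No neuron marker was called on day 3 at either age, and on day 14 3 of 9 were lower at 3 months and 1 higher at 12 months. The part of these cells in the members' changes was not tested.

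**Figure D5:**
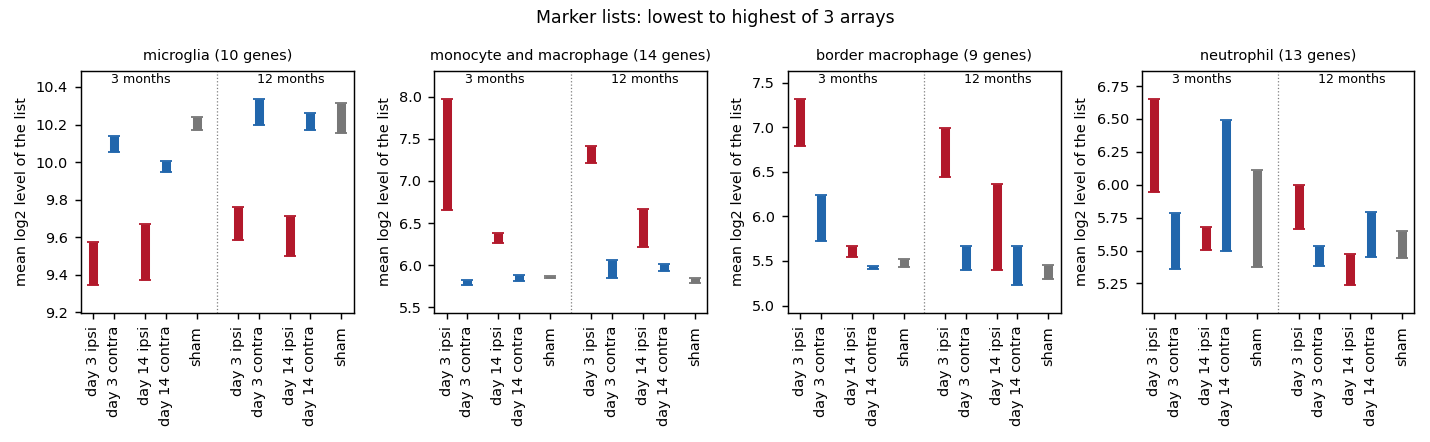
Mean log2 level of 4 marker lists, as a bar from the lowest to the highest of the 3 arrays of each group (ipsilateral red, contralateral blue, sham grey; 3 months left, 12 months right; each panel has its own scale). The monocyte and macrophage list reached 6.66 to 7.98 on ipsilateral arrays of day 3 at 3 months and the microglial list was lower on all ipsilateral arrays than on the other arrays.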

How the data were processed

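The deposited log2 values cover 29214 probe sets on each of 30 Affymetrix arrays, and the authors made them with RMA in Affymetrix Expression Console (versions not given), per the submitters' processing notes. All 30 columns were used, with 0 left out. Probe sets were named through the platform annotation: 15310 had 1 gene symbol, 323 several and 13581 were not listed. A probe set was kept where it exceeded the 30th percentile of its array on at least 3 arrays, and the brightest represented a gene. The members and lists were chosen with earlier results of these data known.

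Group means were compared with limma 3.58.1 in R 4.3.3 (lmFit and eBayes, 1 model of 10 groups, 20 residual degrees of freedom), with Benjamini-Hochberg adjustment over 11675 genes and calls at 0.05. Per-array values are given for the 4 largest rises and 2 largest falls of each hemisphere comparison, the 4 largest differences between days, and Ctsd, Lamp1, Cd68, Grn, Tfeb, Atp6v0d1 and Atp6v0d2. A gene dim on all 3 arrays of a group was given a bound there, with no allowance for sampling error. The code was tested on simulated data. Sample codes tie both hemispheres to 1 animal: deviations from group means correlated at -0.08 to 0.21 over 12 animals, and 8 of the 12 correlated best with their own partner. P-values over sham samples, whose separate origin is not stated, may measure technical spread. The 10 groups share 1 estimate of the spread of each gene, so the sham samples also enter the other p-values of that model. No array pair held identical values. The number of arrays limits the precision. Promoters were read with Python 3.11.15.

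Alternatives were the animal as a fixed or random block, quantile normalization or median centring of arrays, no or a stricter (50th percentile) dim filter, an intensity trend, the mean of probe sets, the compared arrays alone, and leaving out each replicate.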

Additional observations from a re-analysis of the deposited data

Results flagged for a closer look

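Of the results, 22 met a rule for a difference between groups: the ipsilateral-minus-contralateral change (log2) on day 14 minus that on day 3 was called by limma's test of that difference. At 3 months Gaa differed by 1.13 and Ctsk by 0.95, Arsb by 0.88 and Hexa by 0.86. Ctsd followed at 0.66, Glb1 at 0.59, Man2b1 at 0.56, Manba at 0.48, Gla at 0.47 and Tpp1 at 0.45. The smallest at 3 months were Lipa at 0.42, Lamp2 at 0.39 and Npc2 at 0.36. At 12 months Gaa differed by 1.06 and Hexa by 0.61, Cd68 by 0.57, Arsb by 0.54 and Tfeb by 0.50. Man2b1 differed by 0.48, Glb1 by 0.41 and Npc2 by 0.36, and Ctsc in the opposite direction, by -0.74.

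At 3 months Gla and Lamp2 fell on day 3 and did not pass the test on day 14, and Arsb fell on day 3 and rose on day 14. With the animal as a block the 3-month differences of Tpp1, Gla, Manba, Lipa, Npc2 and Lamp2 and the 12-month differences of Glb1, Npc2, Cd68 and Tfeb were no longer called. The hemisphere arrays of each day lay within 1 code number, but at 3 months the 2 days had different code numbers, so day and code number cannot be told apart there. Groups of 3 arrays are too small for a test of single outlying arrays.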

How the results depend on the processing

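Of 2448 recomputed values of single members, 2322 stayed on their side of the threshold, 104 lost a call and 22 gained a call. No called value turned direction. Where neither fit made a call, direction was not compared. Each sample code ties both hemispheres to 1 animal. In the paired fit with the animal as a fixed replicate block, the counts of called members were 22, 32, 30 and 25 in the hemisphere comparisons (23, 35, 34 and 28 without it), in the order 3 months day 3 and day 14, then 12 months day 3 and day 14. The differences between days then had 7 at 3 months (13 without it) and 5 at 12 months (9 without it), and those between ages stayed at 0. As a random block the animal gave 24, 37, 34 and 31, and 14 and 10 between days.

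The arrays compared, fitted alone, gave 14 called members in place of 23 on day 3 at 3 months and 4 in place of 13 for the 3-month difference between days, with fewer residual degrees of freedom. An intensity trend gave 21 for that difference. Quantile normalization gave 15 in place of 31 in the contralateral hemisphere against sham on day 14 at 3 months. The causes of these 2 shifts were not tested.

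Leaving out 1 array at a time gave 16 to 23, 31 to 34, 24 to 34 and 25 to 26 called members in the hemisphere comparisons. The difference between days gave 7 (without contralateral array 3 of day 3) to 17 (without contralateral array 2 of day 3) at 3 months and 5 (without ipsilateral array 1 of day 3) to 8 at 12 months. The sham comparison between ages gave 9 to 14, below the 19 of all arrays, and the contralateral comparison with sham on day 3 at 12 months gave 0 (without sham array 2) to 1. With 3 arrays a group, and dim members close to background, small changes could not be told from 0.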
